A study of Mus musculus with 16 samples.

Results

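The genes described here are 36 genes of cell division and DNA replication, read in the livers of 16 mice. They were taken from a list of symbols chosen with earlier results of these data known. It spans the proliferation marker Mki67, the replication helicase subunits Mcm2 to Mcm7, S and M phase cyclins, mitotic kinases, centromere proteins and spindle motors. All 36 were found among the 55471 gene identifiers of the count files, and all 36 passed the filter on low counts that left 17046 genes. Total RNA of snap-frozen liver was sequenced in 4 groups of 4 mice. The aged control mice were 102 weeks old and had no antibiotics, the aged PAM I and PAM II mice were 102 weeks old and belonged to antibiotic groups of those names, and the young mice were 12 weeks old and had no antibiotics. The title of the series places the antibiotic exposure in early life, and the labels used here give no strain, allele, drug, dose, sex, litter or cage. A free-text note on the young samples calls them aged, so their title, age and group fields were followed. Libraries are numbered within a group as names only, each is taken as 1 mouse, and the p-values measure the spread between these libraries.

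A cell that divides copies its DNA in S phase and separates the copies in mitosis, and the genes for each step are transcribed mainly when the step is due. Members of the E2F family drive S phase genes, while FOXM1 and MuvB complexes drive the genes of G2 and mitosis, many of them through a promoter element called CHR, often beside CCAAT boxes bound by NF-Y. Most hepatocytes of an adult liver are out of the cell cycle, and immune cells, blood cell precursors or tumour cells in a liver sample bring transcripts of the same genes.

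Promoters of members that were higher in aged livers are shown, those of mitotic genes because they carry the elements by which such genes are usually recognised. RefSeq promoter windows of the GRCm38.p6 assembly, from 250 bases before to 50 bases after a transcription start, were given for 29 members in 31 entries. Aurkb, Ccna2, Ccne2, Foxm1, Kif20a, Mcm4 and Tpx2 had no entry. The bases before the start are printed for 3 mitotic genes and for Pcna, the sliding clamp of replication, with matches to CHR or CCAAT in capitals on either strand. The Pcna window had a CCAAT match but no match to CHR. The windows lie at chr11:99024190-99024439 on the minus strand for Top2a, chr13:100786487-100786736 on the minus strand for Ccnb1, chr7:122159185-122159434 on the plus strand for Plk1 and chr2:132253181-132253430 on the minus strand for Pcna.
Top2a: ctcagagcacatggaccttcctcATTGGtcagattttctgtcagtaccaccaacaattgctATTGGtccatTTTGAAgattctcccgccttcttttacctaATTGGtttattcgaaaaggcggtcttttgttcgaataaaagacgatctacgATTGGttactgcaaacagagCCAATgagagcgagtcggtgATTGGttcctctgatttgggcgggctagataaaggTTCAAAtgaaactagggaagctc
Ccnb1: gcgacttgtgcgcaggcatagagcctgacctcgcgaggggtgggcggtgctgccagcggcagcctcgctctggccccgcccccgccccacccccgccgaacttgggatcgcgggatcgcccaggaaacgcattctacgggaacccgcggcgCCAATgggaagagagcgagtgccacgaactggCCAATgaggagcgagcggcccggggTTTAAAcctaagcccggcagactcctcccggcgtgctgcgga
Plk1: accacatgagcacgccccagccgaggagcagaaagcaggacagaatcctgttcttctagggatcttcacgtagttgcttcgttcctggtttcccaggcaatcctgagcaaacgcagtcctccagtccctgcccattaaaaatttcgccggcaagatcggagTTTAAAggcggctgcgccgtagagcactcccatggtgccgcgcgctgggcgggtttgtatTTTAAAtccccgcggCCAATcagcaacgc
Pcna: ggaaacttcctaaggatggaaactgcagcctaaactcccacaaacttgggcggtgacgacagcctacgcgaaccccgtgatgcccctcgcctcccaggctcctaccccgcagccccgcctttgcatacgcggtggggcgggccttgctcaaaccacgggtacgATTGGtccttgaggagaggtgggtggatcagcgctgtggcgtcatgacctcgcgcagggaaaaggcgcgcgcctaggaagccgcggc
CHR was searched as TTTGAA and as the palindrome TTTAAA. The CCAAT box was searched by those letters, and E2F as TTTCCCGC, TTTCGCGC, TTTGCCGC or TTTGGCGC, each on both strands. Matches of E2F letters on opposite strands can overlap. A CHR match was present in 90% of the 20 windows of mitotic members, in 36.4% of the 11 windows of S phase members and in 27.6% of all 32851 promoters in the table. CHR and CCAAT matches occurred together in 85% of mitotic windows, 27.3% of S phase windows and 10.7% of all promoters. E2F matches went the other way, with 5% of mitotic windows, 36.4% of S phase windows and 2.26% of all promoters. The S phase members are the 12 genes Mcm2 to Mcm7, Pcna, Rrm2, Tyms, E2f1, Ccne1 and Ccne2, and the other 24 are called mitotic.

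Levels are given as counts per 1000000 gene-assigned fragments (CPM) after scaling by the trimmed mean of M-values (TMM), from 36968993 to 52090914 fragments assigned to genes per library. Per length of exon, 34 of the 36 members lay below the median of all kept genes, which was 2.04 FPKM (fragments per kilobase of exon, scaled to library size) averaged over the 16 libraries. Pcna was highest at 8.28 FPKM and Mcm7 followed at 3.93 FPKM, while Cenpf was lowest at 0.0529 FPKM. Counts were therefore small for many members, with 28 fragments of Ccnb1 summed over the 4 young livers and 100 over the 4 aged controls. Hepatocyte markers held 64627 to 122356 CPM in each library, so every sample read as liver. Some livers stood apart in other markers before any comparison. Aged PAM II liver 1 had 143 CPM of granulocyte precursor markers against 0.389 to 25.3 CPM in the other 15 livers, and 334 CPM of erythroid precursor markers against 82.5 to 190 CPM. Aged PAM I liver 2 had the highest sum of fetal and tumour liver markers, 64.5 CPM against 2.56 to 7.60 CPM in young livers, and 58.6 CPM of it was Ly6d.

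Of the 36 members 17 were called higher in at least 1 aged group than in young mice, 15 of them mitotic genes, and none was called lower. Calls were made where edgeR's quasi-likelihood test gave an adjusted p under 0.05, with Benjamini-Hochberg adjustment over the 17046 genes kept. In aged controls against young mice 5 of 36 members were called, all of them higher, where 1.92% of all genes were called higher. In PAM I against young mice 16 of 36 were called higher, beside 4.83% of all genes, and in PAM II against young mice 13 of 36, beside 3.17%. The median log2 fold change of the members was 0.90, 1.21 and 1.10 in the 3 comparisons, while the median of all genes was -0.01, -0.02 and -0.02. These comparisons share the young libraries, so their likeness is no independent support. Foxm1, Mki67, Top2a, Tpx2 and Kif20a were called in all 3. All 12 aged livers lay above all 4 young livers for 13 of 36 members, as they did for 2.69% of all genes. In bulk liver, more dividing cells and more transcript per dividing cell cannot be told apart.

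**Figure D1:**
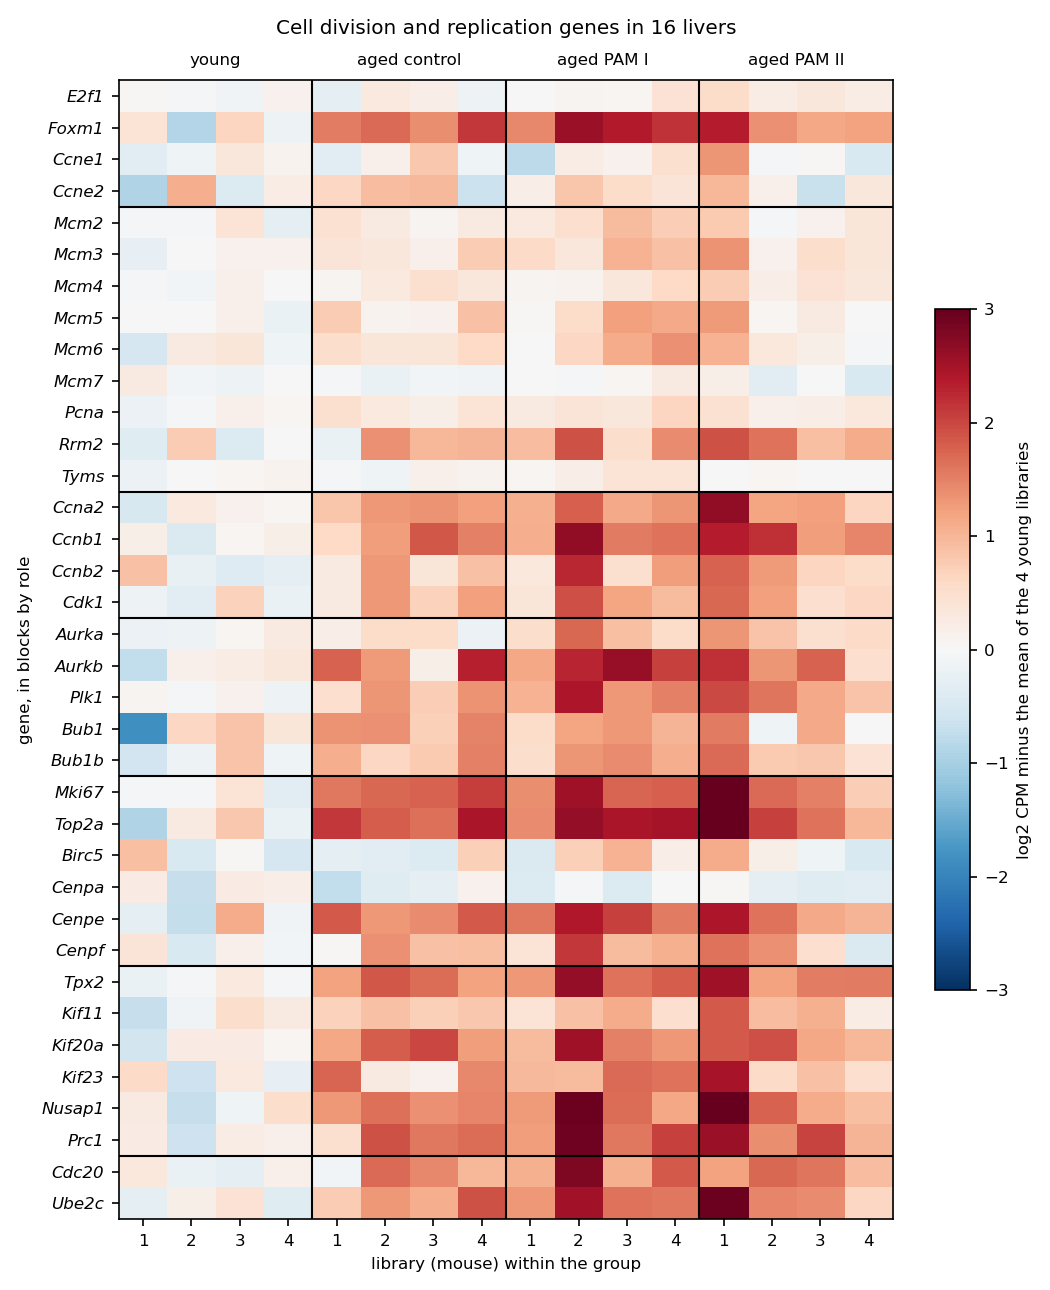
Heat map of log2 CPM (prior count of 2) minus the mean of the 4 young livers, with genes in blocks by role and 1 column per liver. Red fills most mitotic genes in the aged livers and is deepest in PAM I liver 2 and PAM II liver 1, while E2f1, Mcm7, Tyms, Birc5 and Cenpa stay pale.

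The regulators of entry into the cycle divided between Foxm1 and the rest. Foxm1, the transcription factor of the G2 and mitotic programme (chr6:128362967-128376146, plus strand), stood at 0.610, 0.225, 0.729 and 0.402 CPM in young livers, 1.39, 1.58, 1.27 and 2.12 CPM in aged controls, 1.30, 2.97, 2.55 and 2.18 CPM in PAM I and 2.49, 1.24, 1.07 and 1.10 CPM in PAM II. Every aged liver exceeded every young one, and the log2 fold change against young mice was 1.69 ± 0.38 (SE) in controls, 2.19 ± 0.39 (SE) in PAM I and 1.59 ± 0.38 (SE) in PAM II, with adjusted p of 0.0275, 0.00477 and 0.0266. E2f1, an activator of S phase genes, was at 4.76, 4.49, 4.35 and 5.07 CPM in young livers, 3.89, 5.76, 5.35 and 4.21 CPM in aged controls, 4.72, 4.94, 4.87 and 6.28 CPM in PAM I and 6.89, 5.42, 5.96 and 5.42 CPM in PAM II. Young livers overlapped the aged controls and PAM I but not PAM II for E2f1, and the log2 fold changes of 0.04, 0.16 and 0.34 did not pass in any aged group. Ccne1, the cyclin E that starts S phase with Cdk2, read 0.366, 0.424, 0.607 and 0.510 CPM in young livers, 0.363, 0.526, 0.855 and 0.423 CPM in aged controls, 0.252, 0.556, 0.518 and 0.669 CPM in PAM I and 1.24, 0.456, 0.478 and 0.328 CPM in PAM II. PAM II liver 1 alone passed 1 CPM of Ccne1, and the groups otherwise overlapped. The fold change of Ccne1 in controls over young mice was 1.13, with a 95% interval of 0.630 to 2.03. The related Ccne2 had log2 fold changes of 0.43, 0.34 and 0.14 and was not called.

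Replication genes had smaller median fold changes than mitotic ones, and 2 of 9 were called in any comparison. Pcna, the clamp that holds DNA polymerases on the template, measured 14.5, 16.1, 18.2 and 17.2 CPM in young livers, 22.9, 20.1, 18.5 and 21.9 CPM in aged controls, 19.9, 21.6, 20.7 and 25.7 CPM in PAM I and 22.6, 18.4, 18.9 and 20.6 CPM in PAM II. All aged livers exceeded all young livers for Pcna, but by small steps, with log2 fold changes of 0.34 ± 0.11 (SE) in controls, 0.41 ± 0.11 (SE) in PAM I and 0.28 ± 0.11 (SE) in PAM II. Of these the PAM I difference passed (adjusted p = 0.0335), and it was lost in 6 of 8 fits that left out 1 library each. Rrm2, the regulated subunit of ribonucleotide reductase that makes deoxynucleotides, stood at 2.08, 4.59, 2.02 and 2.66 CPM in young livers, 2.34, 7.0, 5.37 and 5.43 CPM in aged controls, 5.10, 10.1, 3.88 and 7.23 CPM in PAM I and 10.3, 8.43, 5.07 and 5.84 CPM in PAM II. Young liver 2 lay above aged control 1 and PAM I liver 3, while no PAM II liver overlapped the young ones. The call on Rrm2 was in PAM II against young mice, with a log2 fold change of 1.38 ± 0.38 (SE) and an adjusted p of 0.0445, and it held in 2 of the 8 fits without 1 library. Tyms, thymidylate synthase, was at 4.85, 5.49, 5.76 and 5.87 CPM in young livers, 5.30, 4.96, 6.09 and 5.86 CPM in aged controls, 5.70, 6.33, 7.36 and 7.25 CPM in PAM I and 5.50, 5.70, 5.57 and 5.46 CPM in PAM II. Levels of Tyms overlapped between controls and young livers, and the fold in controls was 1.01 with a 95% interval of 0.856 to 1.19. The 6 Mcm genes encode the ring-shaped helicase that opens the DNA at origins, and none was called. Their log2 fold changes in PAM I against young mice were 0.62 for Mcm2, 0.73 for Mcm3, 0.29 for Mcm4, 0.82 for Mcm5, 0.83 for Mcm6 and 0.07 for Mcm7. Mcm3 was nevertheless higher in all 12 aged livers, at 4.51 to 10.5 CPM, than in the young ones, at 3.45 to 4.48 CPM. Mcm7 had the highest level of the 6 per length and differed least, at 4.05 FPKM in young mice and 3.73 FPKM in aged controls.

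The cyclins of S phase and mitosis and their kinase had log2 fold changes above 0 in each aged group, and Ccna2 and Ccnb1 passed in both antibiotic groups. Ccna2, cyclin A2, which acts in S phase and G2, read 0.519, 0.924, 0.826 and 0.778 CPM in young livers, 1.37, 1.92, 1.95 and 1.83 CPM in aged controls, 1.61, 2.72, 1.70 and 1.94 CPM in PAM I and 4.92, 1.75, 1.81 and 1.20 CPM in PAM II. No aged liver reached down to the young range, and PAM II liver 1 stood far above the others of its group. The log2 fold change was 1.38 ± 0.37 (SE) in PAM I (adjusted p = 0.0353) and 1.66 ± 0.37 (SE) in PAM II (0.0190), and 1.21 ± 0.37 (SE) in controls (0.0911), where it did not pass. Ccnb1, cyclin B1, the partner of Cdk1 at the entry into mitosis, measured 0.214, 0.125, 0.194 and 0.215 CPM in young livers, 0.303, 0.503, 0.789 and 0.601 CPM in aged controls, 0.440, 1.39, 0.622 and 0.669 CPM in PAM I and 1.12, 0.987, 0.500 and 0.586 CPM in PAM II. The ranges of young and aged livers did not meet. Its log2 fold change was 2.05 ± 0.43 (SE) in PAM I (adjusted p = 0.0119) and 2.09 ± 0.43 (SE) in PAM II (0.0127), and both calls held without each library in turn. In controls the value was 1.54 ± 0.44 (SE) with an adjusted p of 0.0660. Ccnb2, another mitotic cyclin, stood at 1.22, 0.549, 0.486 and 0.536 CPM in young livers, 0.787, 1.67, 0.855 and 1.22 CPM in aged controls, 0.818, 3.25, 0.933 and 1.62 CPM in PAM I and 2.32, 1.65, 1.04 and 0.961 CPM in PAM II. Young liver 1 lay among the aged livers for Ccnb2, and no comparison passed. Cdk1, the kinase that drives mitosis, was at 0.641, 0.574, 1.19 and 0.617 CPM in young livers, 0.888, 1.85, 1.21 and 1.74 CPM in aged controls, 0.944, 2.91, 1.70 and 1.42 CPM in PAM I and 2.51, 1.77, 1.04 and 1.13 CPM in PAM II. Young liver 3 overlapped the aged livers for Cdk1. Its log2 fold changes were 0.90, 1.20 and 1.09 in controls, PAM I and PAM II, and none passed.

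Among the mitotic kinases and checkpoint genes, calls were confined to PAM I and PAM II in these fits, and the difference from the controls was itself not called. Plk1, a kinase of centrosome maturation and mitotic entry, read 0.641, 0.574, 0.656 and 0.536 CPM in young livers, 0.867, 1.58, 1.03 and 1.60 CPM in aged controls, 1.28, 3.40, 1.56 and 1.79 CPM in PAM I and 2.49, 1.92, 1.37 and 1.13 CPM in PAM II. All aged livers exceeded the young ones. The log2 fold change was 1.73 ± 0.34 (SE) in PAM I (adjusted p = 0.00851), 1.52 ± 0.34 (SE) in PAM II (0.0190) and 1.07 ± 0.34 (SE) in controls (0.102, not called). Aurkb, the kinase of the chromosomal passenger complex that corrects chromosome attachment, measured 0.153, 0.324, 0.340 and 0.376 CPM in young livers, 1.09, 0.754, 0.329 and 1.63 CPM in aged controls, 0.692, 1.56, 1.97 and 1.32 CPM in PAM I and 1.46, 0.785, 1.09 and 0.422 CPM in PAM II. Aged control 3 fell inside the young range, and the other 11 aged livers were above it. The difference passed in PAM I, at 2.19 ± 0.50 (SE) (adjusted p = 0.0170), and was 1.64 ± 0.50 (SE) in PAM II and 1.65 ± 0.50 (SE) in controls. Aurka, the kinase of spindle poles, stood at 0.733, 0.749, 0.874 and 1.02 CPM in young livers, 0.968, 1.23, 1.25 and 0.735 CPM in aged controls, 1.22, 2.87, 1.60 and 1.25 CPM in PAM I and 2.17, 1.54, 1.17 and 1.27 CPM in PAM II. Aged controls 1 and 4 lay within the young range, and the other aged livers were above it. Its log2 fold change passed in PAM I at 1.03 ± 0.30 (SE) (adjusted p = 0.0479), a call that held in 1 of 8 fits without 1 library. Bub1 and Bub1b, parts of the spindle checkpoint, had log2 fold changes of 1.11 and 0.98 in controls, 0.88 and 1.06 in PAM I, and 0.65 and 0.95 in PAM II, none of them called. Young liver 1 had 0 fragments of Bub1, a count that allows up to 0.0916 CPM, and counts of 0 allow for counting error only.

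Among chromosome genes Top2a and Mki67 had the largest log2 fold changes in each aged group against young mice. Mki67, the coat protein of mitotic chromosomes used as a proliferation marker (chr7:135689784-135716361, minus strand), was at 1.59, 1.60, 2.23 and 1.31 CPM in young livers, 5.08, 5.60, 5.72 and 7.10 CPM in aged controls, 4.43, 9.88, 5.68 and 5.83 CPM in PAM I and 16.8, 5.49, 4.76 and 2.77 CPM in PAM II. Every aged liver was above every young one, PAM II liver 4 by the least and PAM II liver 1 by the most. The log2 fold change was 1.80 ± 0.44 (SE) in controls (adjusted p = 0.0364), 1.93 ± 0.44 (SE) in PAM I (0.0167) and 2.15 ± 0.44 (SE) in PAM II (0.0117). Without PAM II liver 1 the PAM II value was 1.36 and still passed. Top2a, the topoisomerase that untangles sister DNA (chr11:98992943-99024189, minus strand), read 0.427, 1.02, 1.51 and 0.724 CPM in young livers, 3.79, 3.06, 2.74 and 4.81 CPM in aged controls, 2.31, 5.45, 4.79 and 4.94 CPM in PAM I and 7.31, 3.62, 2.70 and 1.71 CPM in PAM II. The young maximum of 1.51 CPM stayed below the aged minimum of 1.71 CPM. The log2 fold changes of Top2a were 1.95 ± 0.44 (SE), 2.23 ± 0.45 (SE) and 2.05 ± 0.44 (SE), with adjusted p of 0.0272, 0.00885 and 0.0160. Cenpe, a motor of the kinetochore, measured 0.183, 0.125, 0.559 and 0.215 CPM in young livers, 0.948, 0.640, 0.701 and 0.958 CPM in aged controls, 0.797, 1.43, 1.10 and 0.777 CPM in PAM I and 1.46, 0.810, 0.565 and 0.516 CPM in PAM II. Young liver 3 reached into the range of PAM II, and calls were made in PAM I (1.90 ± 0.45 (SE), adjusted p = 0.0197) and PAM II (1.62 ± 0.45 (SE), 0.0473). Cenpf, a kinetochore protein of late G2, had log2 fold changes of 0.90, 1.33 and 1.01, none of them called. Birc5, survivin, a subunit of the passenger complex, stood at 3.08, 1.17, 1.65 and 1.13 CPM in young livers, 1.31, 1.26, 1.21 and 2.67 CPM in aged controls, 1.17, 2.67, 3.36 and 1.88 CPM in PAM I and 3.54, 1.82, 1.46 and 1.17 CPM in PAM II. Young liver 1 stood with the highest aged livers, and the fold in controls was 0.919 with a 95% interval of 0.511 to 1.66. Cenpa, the histone variant that marks centromeres, had log2 fold changes below 0 in all 3 aged groups, of -0.33 ± 0.22 (SE), -0.26 ± 0.22 (SE) and -0.27 ± 0.22 (SE) that did not pass. Its level was 3.74 to 7.24 CPM in young livers and 3.63 to 6.57 CPM in aged ones.

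**Figure D2:**
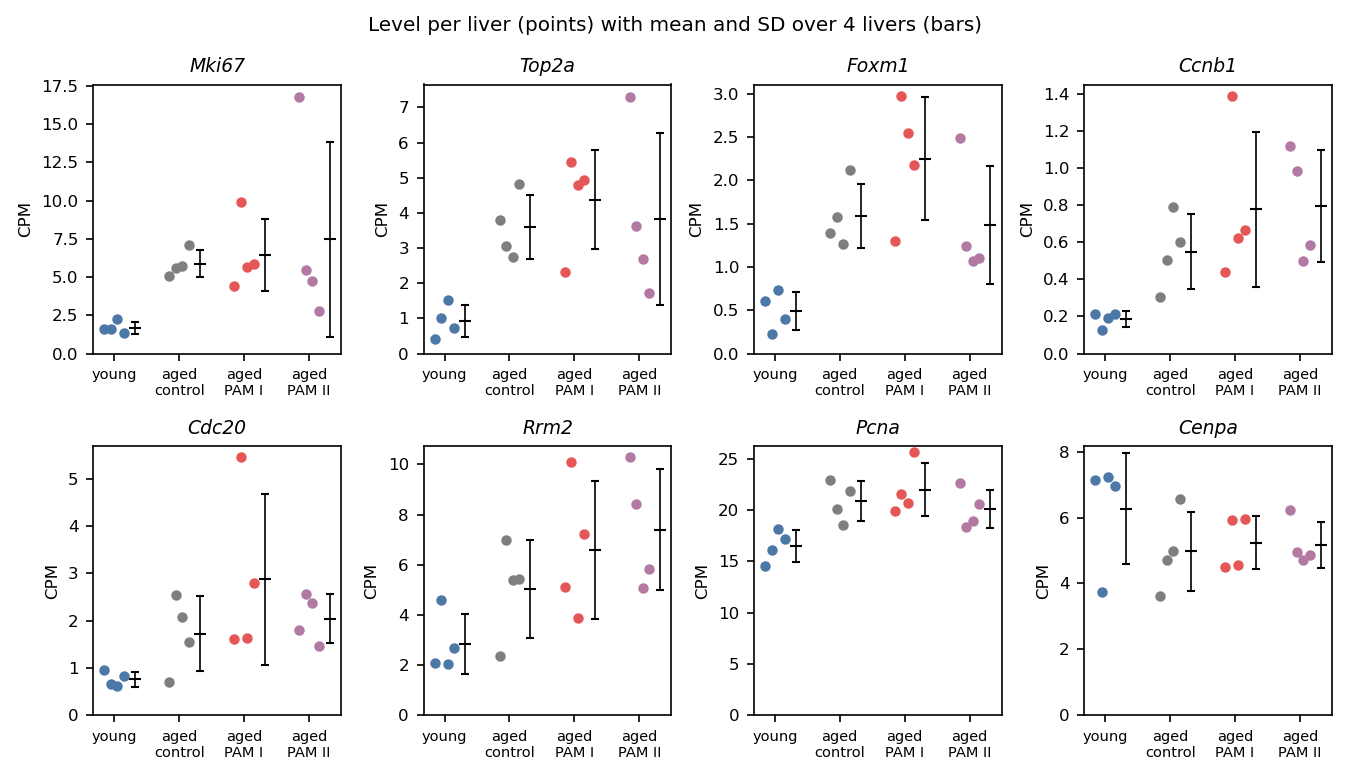
CPM of 8 members, 1 point per liver on a linear axis from 0, with bars for the mean and SD over 4 livers. Aged livers clear the young range for Mki67, Top2a, Foxm1, Ccnb1 and Pcna but not for Cdc20, Rrm2 and Cenpa, and PAM II liver 1 carries the 16.8 CPM of Mki67.

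Spindle genes gave calls in every aged group. Tpx2, which activates Aurora A and builds spindle microtubules, was at 0.397, 0.449, 0.583 and 0.456 CPM in young livers, 1.13, 1.83, 1.60 and 1.14 CPM in aged controls, 1.22, 3.12, 1.56 and 1.75 CPM in PAM I and 2.96, 1.14, 1.44 and 1.48 CPM in PAM II. The groups did not overlap with the young livers. Its log2 fold change was 1.58 ± 0.35 (SE) in controls (adjusted p = 0.0251), 2.01 ± 0.36 (SE) in PAM I (0.00477) and 1.89 ± 0.35 (SE) in PAM II (0.00654), and both antibiotic group calls held in all 8 fits without 1 library. Kif20a, a motor of the central spindle needed to complete cell separation, read 0.427, 0.774, 0.777 and 0.671 CPM in young livers, 1.49, 2.40, 2.74 and 1.60 CPM in aged controls, 1.28, 3.98, 1.93 and 1.66 CPM in PAM I and 2.42, 2.61, 1.5 and 1.34 CPM in PAM II. It also cleared the young range in all 12 aged livers, with log2 fold changes of 1.63 ± 0.37 (SE), 1.73 ± 0.37 (SE) and 1.56 ± 0.37 (SE) and adjusted p of 0.0272, 0.0122 and 0.0238. Exons of Kif20a share 29.3% of their length with Cdc23 on the opposite strand, and strand was used in counting per the file headers. Prc1, which bundles microtubules between separating chromosomes, measured 0.488, 0.250, 0.486 and 0.456 CPM in young livers, 0.585, 1.65, 1.32 and 1.40 CPM in aged controls, 1.03, 3.38, 1.31 and 1.83 CPM in PAM I and 2.70, 1.14, 1.81 and 0.868 CPM in PAM II. Nusap1, a microtubule binder of the spindle, stood at 0.336, 0.150, 0.243 and 0.402 CPM in young livers, 0.726, 0.937, 0.767 and 0.824 CPM in aged controls, 0.713, 2.37, 0.954 and 0.647 CPM in PAM I and 2.48, 1.01, 0.631 and 0.539 CPM in PAM II. For both genes all aged livers were above all young ones, and PAM I liver 2 and PAM II liver 1 were the highest. Prc1 was called in PAM I (2.16 ± 0.46 (SE), adjusted p = 0.0119) and PAM II (1.96 ± 0.46 (SE), 0.0225), as was Nusap1 in PAM I (2.05 ± 0.53 (SE), 0.0307) and PAM II (2.05 ± 0.53 (SE), 0.0371). Kif23, the motor of the centralspindlin complex in cell separation, was at 1.04, 0.424, 0.850 and 0.563 CPM in young livers, 2.40, 0.823, 0.745 and 1.92 CPM in aged controls, 1.38, 1.37, 2.32 and 2.22 CPM in PAM I and 4.01, 1.04, 1.28 and 0.985 CPM in PAM II. Young liver 1 reached into the ranges of the controls and PAM II but not of PAM I, and Kif23 was not called. Kif11, the motor that pushes spindle poles apart, had log2 fold changes of 0.72, 0.70 and 1.11, none of them called.

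The anaphase-promoting complex marks mitotic proteins for destruction, and its members here are the activator Cdc20 and the conjugating enzyme Ube2c. Cdc20 read 0.946, 0.649, 0.607 and 0.831 CPM in young livers, 0.706, 2.54, 2.08 and 1.54 CPM in aged controls, 1.61, 5.45, 1.62 and 2.80 CPM in PAM I and 1.79, 2.56, 2.37 and 1.45 CPM in PAM II. Aged control 1 fell in the young range, and the other 11 aged livers were above it. Cdc20 was called in PAM I (1.92 ± 0.43 (SE), adjusted p = 0.0156) and not in PAM II (1.43 ± 0.43 (SE), 0.0630), and these values were not called different from each other. Ube2c measured 0.580, 0.799, 0.971 and 0.536 CPM in young livers, 1.23, 1.81, 1.53 and 2.76 CPM in aged controls, 1.78, 4.23, 2.28 and 2.20 CPM in PAM I and 5.69, 2.03, 1.96 and 1.10 CPM in PAM II. Every aged liver exceeded the young ones for Ube2c, and it was called in PAM I (1.85 ± 0.46 (SE), adjusted p = 0.0247) and PAM II (1.90 ± 0.46 (SE), 0.0258). Of its exons, 22.8% overlap the muscle gene Tnnc2 on the opposite strand, and skeletal muscle markers ranged from 0.723 to 104 CPM over the 16 livers.

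**Figure D3:**
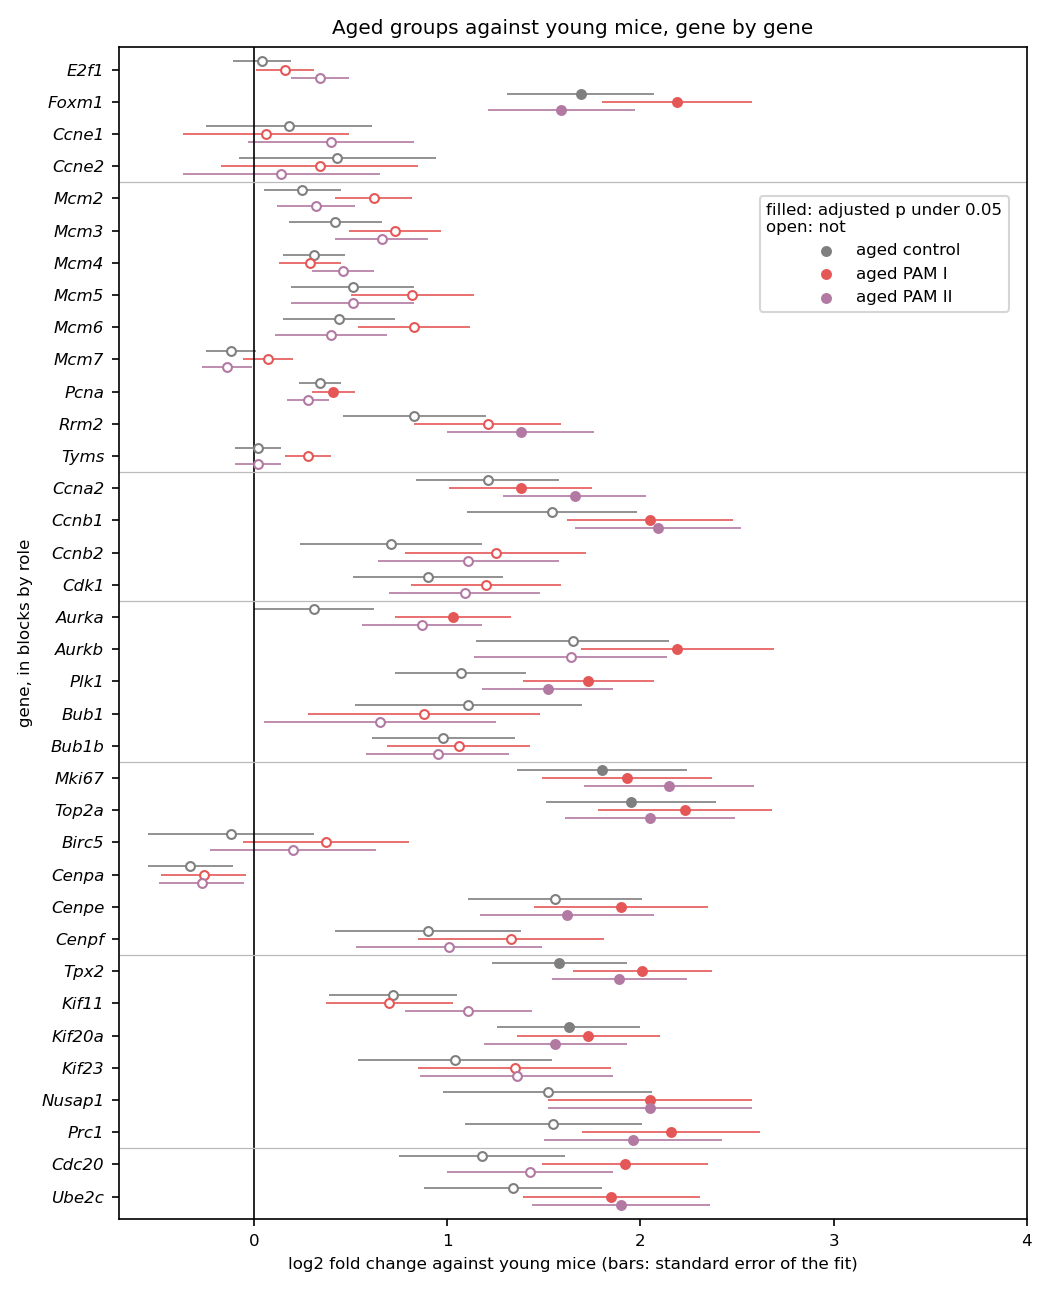
Log2 fold change of each member against young mice in aged controls, PAM I and PAM II, with the standard error of the fit as bars, filled where the adjusted p was under 0.05. Filled points lie among the mitotic genes apart from Pcna in PAM I and Rrm2 in PAM II, and no value left of 0 is filled.

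How firmly these calls stood differed by group. The 5 calls in aged controls fell to 0 without young liver 1 or without young liver 4, and to 2 without aged control 2 or without aged control 4. They were also 0 with the muscle markers as a covariate. Over all genes the 551 calls, in either direction, fell to 271 without young liver 1 and 199 without young liver 4. They fell to 434 without aged control 2, 284 without aged control 4 and 295 with the covariate. Among members, Foxm1, Top2a and Tpx2 each held in 5 of the 8 fits without 1 library, Kif20a in 4 and Mki67 in 1. The Mki67 call in controls was also lost with no filter on low counts. The 16 calls in PAM I fell to 8 without PAM I liver 2 and to 9 without young liver 4. Over all genes the 1401 calls in PAM I fell to 678 and 610 in the same fits. The 13 calls in PAM II fell to 5 without PAM II liver 1, to 6 without young liver 1 and to 3 without young liver 4. Over all genes the 884 calls in PAM II fell to 502, 487 and 373 in the same fits. Of the PAM I calls, Ccna2 and Aurka held in 1 such fit each, Pcna in 2 and Nusap1 in 3. Of the PAM II calls, Rrm2, Cenpe and Nusap1 held in 2 each. Calls that held in every such fit were Foxm1, Ccnb1, Aurkb, Plk1, Top2a, Tpx2, Kif20a and Prc1 in PAM I and Ccnb1, Mki67 and Tpx2 in PAM II. No member was called lower than in young mice under any setting tried.

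Between the aged groups no member was called. In PAM I against aged controls 0 of 36 members passed edgeR's test, as did 0% of all genes, and 2 members had an unadjusted p under 0.05. In PAM II against aged controls 0 of 36 passed, beside 0% of all genes, and 0 members had an unadjusted p under 0.05. In PAM II against PAM I 0 of 36 passed, beside 0% of all genes, and 1 member had an unadjusted p under 0.05. DESeq2 and limma voom also called 0 members in each of the 3, and the counts of all genes with an unadjusted p under 0.05 were 1602, 465 and 778 in that order. The median log2 fold change of the members was 0.31, 0.21 and -0.16, against 0.02, 0.01 and 0.01 for all genes. It became 0.10 in PAM I against controls without PAM I liver 2 and -0.12 in PAM II against controls without PAM II liver 1. The smallest p in PAM I against controls belonged to Aurka, with a log2 fold change of 0.73 ± 0.30 (SE) (adjusted p = 0.506), and Tyms, with 0.26 ± 0.12 (SE) (0.529). In PAM II against controls they belonged to E2f1, at 0.30 ± 0.15 (SE) (adjusted p = 1.0), and Aurka, at 0.56 ± 0.30 (SE) (1.0). In PAM II against PAM I they belonged to Tyms, at -0.26 ± 0.12 (SE) (adjusted p = 0.880), and Foxm1, at -0.60 ± 0.36 (SE) (0.880). The intervals remained wide: the fold of Mki67 in PAM I over controls was 1.10, with a 95% interval of 0.626 to 1.93, and in PAM II over controls 1.27, with 0.726 to 2.23. Groups did not overlap for Mcm7 in PAM I against controls, higher in PAM I, and for Tyms in PAM II against PAM I, lower in PAM II. Such a lack of overlap, in either direction, was seen for 5.47% of all genes in PAM I against controls, 2.1% in PAM II against controls and 4.66% in PAM II against PAM I. Against young mice it was seen, with the aged group higher, for 16 members in controls, 19 in PAM I and 19 in PAM II, beside 4.83%, 9.16% and 8.17% of all genes.

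By their medians, mitotic members stood further from young livers than S phase members. Of the 24 mitotic members 5, 15 and 12 were called higher in controls, PAM I and PAM II, with median log2 fold changes of 1.19, 1.73 and 1.54. Of the 12 S phase members 0, 1 and 1 were called higher, with medians of 0.32, 0.37 and 0.37. Among all genes 1.92%, 4.83% and 3.17% were called higher, and the S phase counts rest on Pcna in PAM I and Rrm2 in PAM II. The 0 in controls came with 2 unadjusted p under 0.05 in edgeR. Taken liver by liver as the median log2 CPM (prior count of 2) minus the young mean, mitotic members stood at 0.81, 1.31, 0.98 and 1.39 in the aged controls, 1.05, 2.34, 1.47 and 1.42 in PAM I, and 2.08, 1.35, 1.13 and 0.63 in PAM II. S phase members stood at 0.24, 0.29, 0.18 and 0.30 in controls, 0.07, 0.36, 0.48 and 0.61 in PAM I, and 0.89, 0.14, 0.19 and 0.27 in PAM II. The mitotic value exceeded the S phase value in all 12 aged livers. Young livers lay at -0.17 to 0.25 for mitotic members and -0.18 to 0.13 for S phase members. Counts differ between these gene sets, since most S phase members had more fragments than most mitotic ones, and whether this bears on the difference was not tested.

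**Figure D4:**
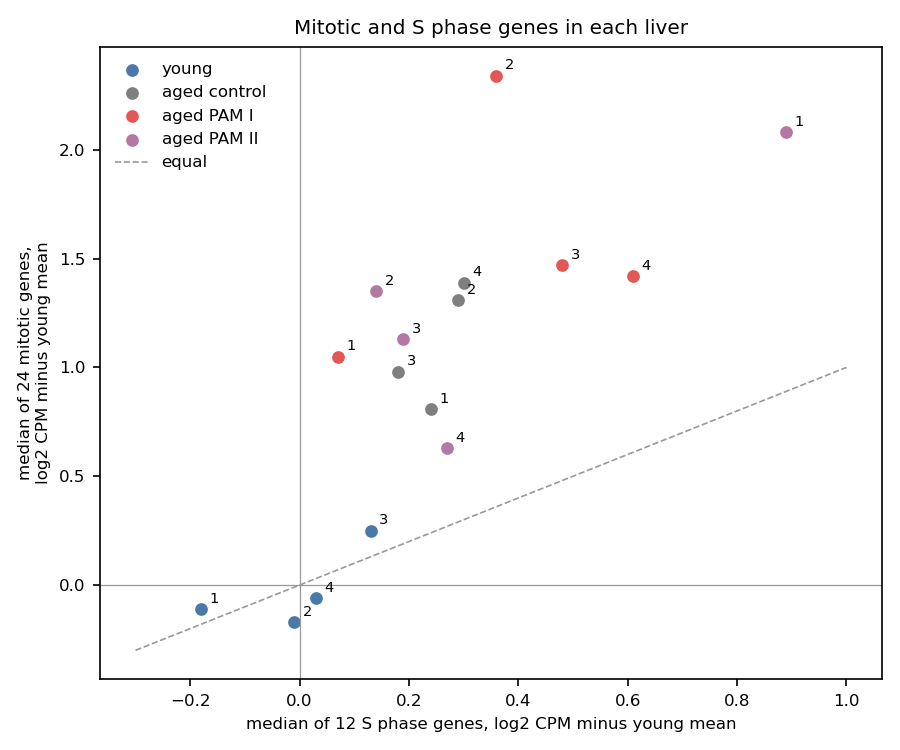
Median of the 24 mitotic genes against the median of the 12 S phase genes in each liver, both as log2 CPM minus the mean of the young livers, with liver numbers beside the points and a dashed line of equality. All 12 aged livers lie above the line, PAM I liver 2 at 2.34 by mitotic genes with 0.36 by S phase genes and PAM II liver 1 at 2.08 with 0.89.

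Single livers set the upper end of most members. PAM II liver 1 had the highest aged value in 18 of the 36 members, 11 mitotic and 7 S phase. PAM I liver 2 had it in 11, all of them mitotic, and PAM I livers 3 and 4 had it in 3 each. The lowest aged value fell most often to PAM II liver 4, in 13 members, and to aged control 1, in 10. Markers of other cells moved with some of these livers. PAM II liver 1 also held the highest Kupffer cell sum, 850 CPM, and the highest sum of recruited monocyte and macrophage markers, 102 CPM, beside its granulocyte and erythroid precursor markers. Of the Kupffer genes Cd5l, at 368 CPM, and Adgre1 peaked in it. Clec4f, Vsig4, Timd4, Cd163 and Folr2 peaked in PAM I liver 3, and Marco in aged control 1. Its Cd163, at 4.62 CPM, lay below the young range of 6.02 to 9.55 CPM. Of the recruited markers Ly6c2, Gpnmb, Chil3 and Cd9, at 55.7 CPM, peaked in it. Ccr2, Itgax, Trem2 and Mmp12 peaked in other livers. Of the 8 granulocyte precursor genes, Ctsg and Ms4a3 were at 0 in all 4 young livers, and Ngp reached 38.8 CPM and Prtn3 35.3 CPM in PAM II liver 1. Prtn3 was also at 24.3 CPM in aged control 1, most of the 25.3 CPM sum of that liver, where Ngp was at 0.141 CPM. Of the 10 erythroid genes, Rhag and Hemgn were at 0 in all 4 aged controls, and in PAM II liver 1 they were at 2.61 and 6.65 CPM. Every gene of this list but Alas2 and Tfrc exceeded the young range in PAM II liver 1. Hbb-bt was at 137 CPM and Slc4a1 at 42.6 CPM there, against at most 23.0 and 0.702 CPM in young livers. Alas2, which made up most of the sum in young livers at 126 to 145 CPM, was lower in PAM II liver 1. Tfrc in that liver lay inside the young range of 11.4 to 31.2 CPM. PAM I liver 2 had 2.63 CPM of granulocyte precursor markers and 124 CPM of erythroid ones, both inside the range of the other aged livers without PAM II liver 1. Its fetal and tumour marker Afp was at 1.05 CPM and Gpc3 at 0.428 CPM, inside the young range of 0.474 to 1.14 CPM and below that of 0.624 to 0.850 CPM. Its H19, another gene of that list, was at 1.82 CPM, the highest of the 16 livers, against 0 to 0.340 CPM in young ones. PAM I liver 1 at 1.80 CPM and PAM II liver 1 at 1.70 CPM of H19 were close to it. Golm1 of the same list was at 2.55 CPM in PAM I liver 2, inside the young range of 0.549 to 4.25 CPM. Recruited monocyte and macrophage markers summed to 18.6 to 32.7 CPM in young livers, 40.6 to 86.5 CPM in controls, 45.2 to 79.9 CPM in PAM I and 23.6 to 102 CPM in PAM II. Cd9 made up most of this sum in young livers, at 16.5 to 26.4 CPM, and was at 15.1 CPM in PAM II liver 4, the lowest aged sum. In that liver Gpnmb, Itgax, Trem2, Chil3 and Mmp12 exceeded the young range, and Ly6c2 and Ccr2 lay inside it. Of these 8 markers 4 were called higher than in young mice in each aged group, among them Gpnmb (log2 fold change 3.92 ± 0.57 SE in controls) and Itgax (3.01 ± 0.57). T cell markers summed to 5.77 to 7.63 CPM in young livers and reached 40.4 CPM in aged control 4, 34.6 CPM in PAM I liver 3 and 32.3 CPM in PAM I liver 4. The highest B cell sum was 43.1 CPM in PAM I liver 4 against at most 10.8 CPM in young livers. Plasma cell markers ran from 198 to 345 CPM in young livers and stood at 1258 CPM in PAM I liver 4. Most of the young plasma cell sum was Sdc1, at 148 to 302 CPM, and Sdc1 was at 236 CPM in PAM I liver 4. In that liver Igkc was at 476 CPM and Ighm at 514 CPM, against 3.37 to 10.1 CPM and 11.8 to 31.9 CPM in young livers. Derl3 there, at 2.89 CPM, lay below the young range of 3.27 to 23.7 CPM. NK cell sums ran from 0.799 to 9.93 CPM, megakaryocyte sums from 3.29 to 33.5 CPM, with Gp1bb at 0 in all young, control and PAM I livers, endothelial sums from 125 to 292 CPM and bile duct sums from 10.3 to 31.6 CPM. The highest megakaryocyte, endothelial and bile duct sums were all in PAM II liver 1. That liver was also highest for every megakaryocyte gene but Pf4 and every bile duct gene but Sox9. Of the endothelial genes Pecam1, Stab2 and Cdh5 peaked there, while Kdr, Clec4g, Lyve1 and Dnase1l3 did not. Clec4g, at 30.5 CPM, lay below the young range of 40.4 to 49.4 CPM. Of the 7 endothelial genes 2, 1 and 0 were called lower than in young mice in controls, PAM I and PAM II. Among all genes 1.31%, 3.38% and 2.01% were called lower. Stellate cell and fibroblast sums ran from 164 to 463 CPM. The part of these cells in the higher mitotic genes was not tested. Leaving out PAM I liver 2 and PAM II liver 1 together, a step chosen after their values were seen, gave 12 called members in controls, 16 in PAM I and 7 in PAM II, with medians of 0.91, 0.88 and 0.71. Over all genes that step gave 609, 1246 and 450 calls in either direction, where all 16 livers gave 551, 1401 and 884.

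**Figure D5:**
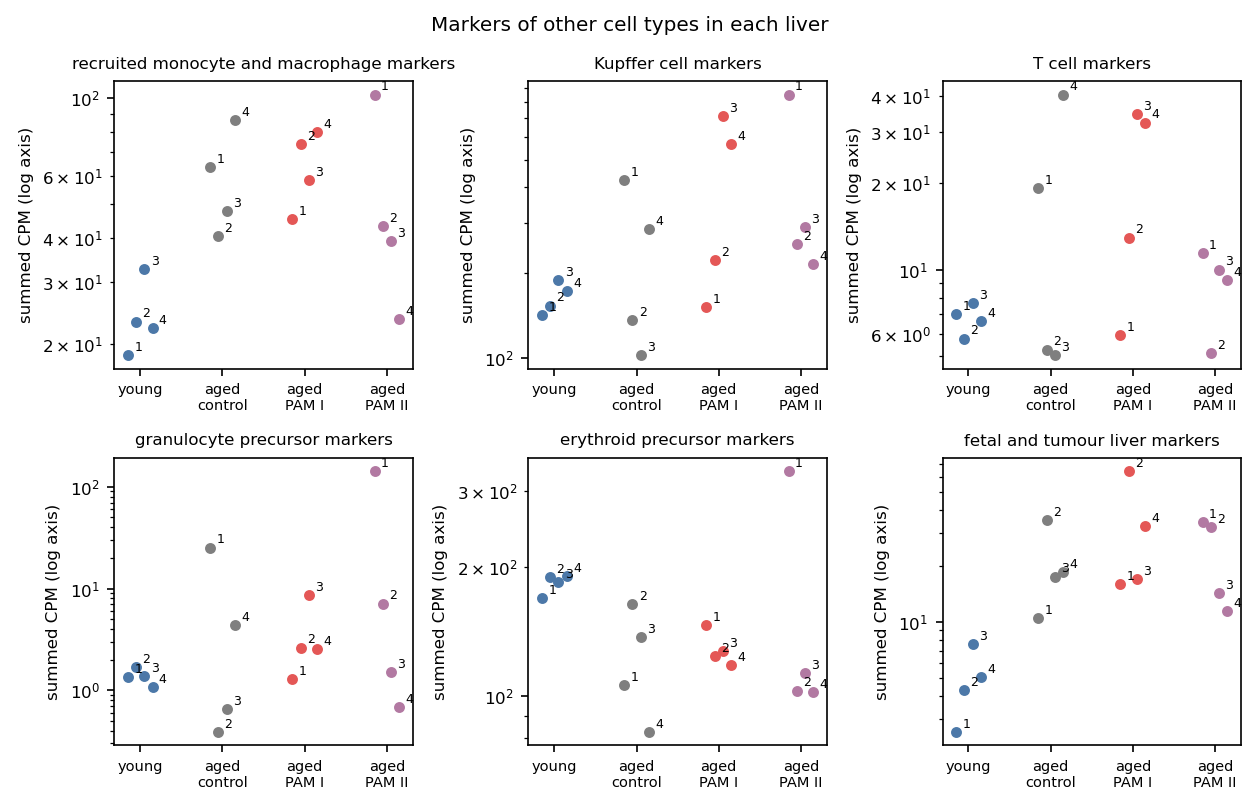
Summed CPM of 6 marker lists per liver on log axes, with liver numbers beside the points. PAM II liver 1 is alone at 143 CPM of granulocyte and 334 CPM of erythroid precursor markers, PAM I liver 2 is highest for fetal and tumour markers, and recruited macrophage markers exceed the young range in 11 of the 12 aged livers.

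Genes of the same pathways outside the 36 were read from lists also chosen with earlier results of these data known. The shares called are therefore description only. These lists held 222 genes, of which 206 were tested. In controls, PAM I and PAM II against young mice 9, 27 and 14 of them were called higher and 2, 3 and 1 lower, with medians of 0.17, 0.24 and 0.18, and none was called between aged groups. The shares called higher were 4.37%, 13.1% and 6.80%, beside 1.92%, 4.83% and 3.17% of all genes, and those called lower 0.971%, 1.46% and 0.485%, beside 1.31%, 3.38% and 2.01%. Further motors, spindle and cytokinesis genes were nearest to the mitotic members, with 3, 12 and 6 of 32 called higher, none lower, and medians of 1.23, 1.34 and 1.31. Ckap2l, a mitotic spindle protein, went from 0.247 ± 0.0419 CPM in young mice to 1.08 ± 0.150 CPM in controls (mean ± SD, n = 4), with a log2 fold change of 2.12 ± 0.33, 2.27 ± 0.33 and 2.06 ± 0.33 in the 3 aged groups. Its relative Ckap2 was called in all 3 as well, at 2.30 ± 0.48, 2.45 ± 0.48 and 1.82 ± 0.48, and the chromosome motor Kif4 in PAM I (2.05 ± 0.40) and PAM II (1.71 ± 0.40). Of 32 kinetochore and centromere genes 2, 5 and 2 were called higher, with medians of 0.38, 0.44 and 0.36. They included Ndc80, the microtubule receptor of the kinetochore, in controls (2.02 ± 0.49) and PAM I (2.22 ± 0.49), and its partner Nuf2 in PAM I (1.96 ± 0.44) and PAM II (1.78 ± 0.44). Of 12 spindle checkpoint and anaphase genes 2, 2 and 1 were called higher, with medians of -0.01, 0.14 and -0.01. Mad2l1, a checkpoint protein, was called in every aged group (0.96 ± 0.20, 1.05 ± 0.20 and 0.81 ± 0.20), and Espl1, the protease separase, in controls (1.59 ± 0.42) and PAM I (1.54 ± 0.42). Of 15 condensin and cohesin genes 1, 2 and 1 were called, with Ncapg2 of condensin II in each group (1.58 ± 0.32, 1.34 ± 0.32 and 1.54 ± 0.32).

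Replication genes outside the 36 had medians near 0 with single called genes. Of 24 tested DNA polymerase and fork genes 1, 2 and 2 were called higher, which is 4.17%, 8.33% and 8.33% beside 1.92%, 4.83% and 3.17% of all genes, with medians of 0.10, 0.19 and 0.07. Uhrf1, which keeps DNA methylation through replication, was called in all 3 (1.95 ± 0.46, 2.24 ± 0.46 and 2.01 ± 0.46), and Lig1, the ligase of the lagging strand, in PAM I (1.08 ± 0.19) and PAM II (0.88 ± 0.19). Of 23 tested origin licensing and firing genes 0, 2 and 2 were called higher and 1, 0 and 0 lower, with medians of 0.10, 0.15 and 0.14. Ticrr, a factor of origin firing, was called higher in PAM I (3.68 ± 0.85) and PAM II (3.77 ± 0.84) from 0.0186 ± 0.0238 CPM in young mice, a level of few fragments. Mcm10 was called lower in controls (-1.16 ± 0.27), from 74.4 ± 38.2 CPM in young mice to 33.3 ± 0.637 CPM. Both levels lie above the 25.7 CPM of Pcna, the highest value of any member. Exon overlap with other genes was examined for the 36 members only, not for genes of these lists. Among 10 nucleotide supply genes 1 was called lower in each aged group, with medians of 0.04, 0.09 and 0.18. It was Tk1, the thymidine kinase of salvage, which went from 33.6 ± 10.3 CPM in young mice to 16.5 ± 4.10 CPM in controls, with log2 fold changes of -1.03 ± 0.22, -1.06 ± 0.22 and -1.13 ± 0.22. Of 15 listed replication-dependent histone genes 3 passed the filter and none was called, among them Hist1h4i (0.69 ± 0.35 in PAM I).

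Of 55 regulators upstream, in 4 lists, 4 were called in either direction in PAM I against young mice, and this 7.27% lay near the 8.22% of all genes. Of 14 further cyclins, kinases and phosphatases 0, 1 and 0 were called, Cdc25c, a phosphatase that activates Cdk1, being higher in PAM I (2.43 ± 0.67). Of 10 CDK inhibitors and pocket proteins none was called higher, and Rbl2, a pocket protein of resting cells, was lower in PAM I (-0.51 ± 0.13). The inhibitor Cdkn1a had a log2 fold change of 1.04 ± 0.42 in controls that did not pass (adjusted p = 0.192), and Cdkn2a 2.26 ± 0.73 in PAM II (adjusted p = 0.0822). Of 15 further E2F, DREAM and MMB factors 1 was called, Tfdp2, an E2F partner, lower in PAM I (-0.58 ± 0.14). Of 16 tested liver growth signals 1 was called, Ereg, an EGF receptor ligand, higher in PAM I (2.39 ± 0.60), with 2.28 ± 0.60 in controls (adjusted p = 0.0504) and 2.14 ± 0.60 in PAM II (adjusted p = 0.0513). The medians of these 4 lists were 0.03, 0.33, -0.07 and -0.16 in controls against young mice.

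Some members have copies or neighbours that could take or lend fragments. Processed pseudogenes named after Pcna, Tyms, Ccnb1 and Ccnb2 held 75, 6, 9 and 47 fragments over the 16 libraries, against 14299, 4149, 427 and 908 for the genes, and how fragments matching several places were treated is not given in the sources used here. On the same strand Foxm1 shares 2.5% of its exon length with Tex52 and 1.69% with Gm44596. Mcm7 shares 1.9% with Mir25 and 1.99% with Mir93, and Top2a shares 1.35% with Gm23451.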

How the data were processed

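Liver RNA was sequenced from 16 mice in 4 groups of 4, and the labels' age, title and group fields set the groups. The deposited files hold raw counts of fragments per gene, with no normalization and no filter. The authors used Trimmomatic 0.38, HISAT2 2.1.0 with build mm10, and featureCounts 1.5.0-p2, per the submitters' processing notes. Exon overlaps were added up for each gene, per the file headers, from Ensembl release 99 with strand setting 1, and symbols were matched through GENCODE release M21. The members and gene lists were chosen with earlier results of these data known.

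Counts were analysed with edgeR 4.0.16 in R 4.3.3. The filter was filterByExpr, given the 4 groups, and scaling was by TMM. All 16 libraries and 17046 genes entered a robust quasi-likelihood fit with a mean for each group, with a biological coefficient of variation of 27.3%. Tests were two-sided F tests with Benjamini-Hochberg adjustment over all genes in each of 6 comparisons, and a gene was called at an adjusted p under 0.05. The procedure was tested on simulated data. SE is the standard error implied by the F statistic, SD is over 4 libraries, and 95% intervals of folds come from the SE and the normal distribution. Such intervals are somewhat narrower than the F test would give. No 2 libraries were copies: the closest pair differed by a root mean square of 0.256 in log2 CPM.

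Values per library were given for members called in any comparison, for Mki67, Top2a, Cdk1, Ccna2, Pcna and Ccne1, for the members with the smallest and largest p in each role in controls against young mice, and for the 2 members with the smallest p in each other comparison by their fold change. Other pathway genes were named by smallest p within each list. Marker lists of 15 cell types were summed per library.

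As alternatives, scaling was by RLE or upper quartile, and genes were left unfiltered or put through a filter of 1 CPM in 4 libraries. Others were DESeq2 1.42.0, limma 3.58.1 voom with quality weights, a fit of the 2 groups alone and a muscle covariate. Further fits left out each library in turn, aged control 4 and young 1, or 6 aged livers high in muscle transcripts. In the last of these, young livers 1 and 4 stayed in with muscle marker sums of 104 and 26.0 CPM, while aged control 2 at 11.7 CPM was left out. Against young mice that fit therefore did not even out the muscle markers. A fit without PAM I liver 2 and PAM II liver 1 was added after seeing the data.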

Additional observations from a re-analysis of the deposited data

Results flagged for a closer look

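Single libraries stood far from the other 3 of their group in 8 of 144 groups of 4 examined on log2 CPM, where chance gives about 1 in 20. In young mice, Ccnb2 was at 1.22 CPM in liver 1 against 0.486 to 0.549 CPM in the others. Cdk1 was at 1.19 CPM in young liver 3 against 0.574 to 0.641 CPM. Young liver 2 was low for Cenpa, at 3.74 CPM against 6.95 to 7.24 CPM, and for Prc1, at 0.250 CPM against 0.456 to 0.488 CPM. In aged controls, Bub1 was at 0.219 CPM in liver 3 against 0.363 to 0.401 CPM, and Birc5 at 2.67 CPM in liver 4 against 1.21 to 1.31 CPM. In PAM I, E2f1 was at 6.28 CPM in liver 4 against 4.72 to 4.94 CPM, and Top2a was at 2.31 CPM in liver 1 against 4.79 to 5.45 CPM. PAM II liver 1 and PAM I liver 2, which held the highest value of most members, did not stand apart by this measure in any member.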

How the results depend on the processing

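With RLE scaling, upper-quartile scaling, no filter or the stricter filter, every count of called members stayed within 1.5 times its value. Called members in aged controls against young mice numbered 13 with DESeq2, 2 with limma voom, 3 without the 6 aged livers high in muscle transcripts, 0 with the muscle covariate, 0 without aged control 4 and young 1, and 12 without PAM I liver 2 and PAM II liver 1, and 0 to 6 without each library in turn. In PAM I against young mice, the fit without the 6 muscle-high livers kept PAM I livers 3 and 4. Pcna, Ccna2, Ccnb1, Aurka, Cenpe, Kif20a, Nusap1 and Cdc20 were not called in that fit, though Ccnb1 and Kif20a had held without each library in turn. Leaving out each library gave 8 to 18 called members in PAM I against young mice. In PAM II against young mice they numbered 6 with limma voom, 8 in a fit of the 2 groups alone, 6 without aged control 4 and young 1, 7 without PAM I liver 2 and PAM II liver 1, and 3 to 14 without each library. Without the 6 muscle-high livers, which leaves PAM II liver 1, the liver highest in 18 members, alone in its group and assumed to vary like the others, the median log2 fold change of the members was 0.90 in PAM II against controls, 0.58 in PAM II against PAM I and 1.69 in PAM II against young mice. No member was called between aged groups under any setting.

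Signs near 0 turned for a few genes that were not called. In controls against young mice Ccne1 was at -0.21 with the muscle covariate, E2f1 at -0.06 without the 6 muscle-high livers, and Tyms at -0.08 with limma voom, -0.07 without aged control 4 and young 1 and -0.07 with the muscle covariate. Foxm1 in PAM II against PAM I was at 0.08 without the 6 muscle-high livers. Without each library in turn Ccne1 ran from -0.13 to 0.33, E2f1 from -0.06 to 0.13, Tyms from -0.04 to 0.06 and Birc5 from -0.47 to 0.29.

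Over all genes, the 551 calls in controls against young mice became 1343 with DESeq2, 198 in a fit of the 2 groups alone, 155 without aged control 4 and young 1, 231 without the 6 muscle-high livers and 295 with the muscle covariate. The 1401 calls in PAM I against young mice became 2629 with DESeq2, 2627 with limma voom, 896 with no filter and 885 without the 6 muscle-high livers. The 884 in PAM II against young mice became 1860 with DESeq2, 1552 with limma voom and 450 without PAM I liver 2 and PAM II liver 1. Leaving out each library in turn gave 199 to 573 calls in controls, 544 to 1529 in PAM I and 373 to 925 in PAM II against young mice. Between aged groups the count of 0 became 16 with DESeq2 in PAM I against controls, and 3, 32 and 12 without the 6 muscle-high livers in PAM I against controls, PAM II against controls and PAM II against PAM I. The causes of these shifts were not tested. No paired analysis was possible because the labels give no numbers or animals shared between groups. Depth limits 12 members with under 100 fragments over the 4 young livers, from 24 for Bub1 to 91 for Plk1. Those of the 12 that were called are Foxm1, Ccnb1, Aurkb, Plk1, Cenpe, Tpx2, Nusap1 and Prc1.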
